A study of Homo sapiens with 6 samples.

Results

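The genes described here carry glucose into the cell, break it down to lactate or divert it into the pentose phosphate pathway. They were chosen by name, from 33 symbols for glucose and lactate transporters, glycolytic enzymes with their isozymes, regulators of glycolytic flow, lactate dehydrogenase subunits and pentose phosphate enzymes. Of the 33 symbols, 32 were found among the 31999 genes of the deposited table. PGLS was not analysed here. The samples were 6 libraries of poly(A) RNA from HEL, a cell line of human erythroleukemia, an acute myeloid leukemia of the red cell lineage. The cells had been transduced with lentiviral small hairpin RNA, 3 libraries with a control hairpin (shCtrl) and 3 with a hairpin against the immune receptor TMIGD2 (shTMIGD2). The labels call the libraries of a group biological replicates. The study made several TMIGD2 hairpins and treated its transduced leukemia lines with puromycin, and the labels do not say which hairpin the sequenced cells carried. The study asked how loss of TMIGD2 alters transcription in leukemia cells.

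The value used for each gene was the authors' mean log2 CPM (CPM are the counts of a gene scaled to a library total of 1000000), a single value per gene over both groups of libraries. It has no spread and no value per library, so the hairpins could not be compared, no difference between genes could be tested, and the depth of the libraries is unknown from the table. A gene that differs between the hairpins therefore has a mean that need not be the level of either group. In RNA from whole cultures, fewer cells that use a gene and less of its RNA per cell cannot be told apart. The mean of TMIGD2 itself was 4.08, or 16.9 CPM, and this pooled value does not show the knockdown. All 12 markers of the erythroid and megakaryocytic lineages of HEL cells were listed at 5.52 or more, with ITGA2B, an integrin of megakaryocytes, at 10.54. Of the markers of other cell types, 1 of 6 for lymphocytes, 1 of 6 for monocytes and granulocytes, 1 of 4 for epithelium and 0 of 4 for fibroblasts reached a mean log2 CPM of 0, and the highest was LYZ at 4.40.

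Glycolysis splits glucose into a pair of triose phosphates and oxidises them to pyruvate, with a net gain of ATP. Proliferating leukemia cells commonly send much of that pyruvate to lactate, which monocarboxylate transporters carry out of the cell. The pentose phosphate pathway branches off at glucose 6-phosphate and supplies NADPH and the ribose of nucleotides, and red cells also divert a glycolytic intermediate into 2,3-bisphosphoglycerate, which loosens the grip of hemoglobin on oxygen. Several of the enzymes exist as isozymes from separate genes, each typical of certain tissues.

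To show the sequence from which the highest and lowest members are transcribed, together with members that hold the letters of known binding sites, the RefSeq promoters of ENO1, LDHA, PGK1 and HK3 are printed here (GRCh38.p14, 250 bases before to 50 after the start, in the direction of the gene). Capitals mark ACGTG, a form of the core of the site of hypoxia-inducible factors, on either strand. Other forms of that core, such as GCGTG, were not searched for and are not marked. The windows are chr1:8878637-8878936 on the minus strand for ENO1, chr11:18394313-18394612 on the plus strand for LDHA, chrX:78103998-78104297 on the plus strand for PGK1 and chr5:176899297-176899596 on the minus strand for HK3.
ENO1: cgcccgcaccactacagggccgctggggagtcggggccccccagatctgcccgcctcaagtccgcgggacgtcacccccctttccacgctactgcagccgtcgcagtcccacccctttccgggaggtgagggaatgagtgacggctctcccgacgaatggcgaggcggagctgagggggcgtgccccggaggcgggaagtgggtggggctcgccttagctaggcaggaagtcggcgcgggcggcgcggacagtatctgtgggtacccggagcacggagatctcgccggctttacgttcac
LDHA: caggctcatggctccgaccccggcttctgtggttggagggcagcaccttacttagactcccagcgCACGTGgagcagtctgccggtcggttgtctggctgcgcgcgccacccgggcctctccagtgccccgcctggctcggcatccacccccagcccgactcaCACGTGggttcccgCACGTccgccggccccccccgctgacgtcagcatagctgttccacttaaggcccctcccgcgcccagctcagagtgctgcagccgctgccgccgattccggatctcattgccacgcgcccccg
PGK1: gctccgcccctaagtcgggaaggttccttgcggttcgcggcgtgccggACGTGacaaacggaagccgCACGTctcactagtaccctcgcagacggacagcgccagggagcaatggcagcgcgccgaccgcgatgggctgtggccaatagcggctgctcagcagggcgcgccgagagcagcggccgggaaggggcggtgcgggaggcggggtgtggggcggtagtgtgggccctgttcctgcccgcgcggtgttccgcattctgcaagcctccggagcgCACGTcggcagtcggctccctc
HK3: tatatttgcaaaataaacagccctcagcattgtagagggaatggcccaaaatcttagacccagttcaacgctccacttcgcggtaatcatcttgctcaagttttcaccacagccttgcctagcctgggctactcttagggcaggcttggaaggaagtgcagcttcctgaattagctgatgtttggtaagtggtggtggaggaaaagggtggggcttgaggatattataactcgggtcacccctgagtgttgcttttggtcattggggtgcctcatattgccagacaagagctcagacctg

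The glycolytic program was abundant in HEL cells as a whole, but its members spanned a wide range. Together the 32 members made up 1.31% of the summed CPM. Their median was 7.75 on the log2 CPM scale, beside -0.97 over all genes listed and 4.55 over the 14000 genes with a mean of 0 or more. Relative to those 14000 genes, 17 of the 32 members lay above at least 90% of them by CPM, and 16 when CPM was divided by transcript length. At the lower end, 5 members had a mean log2 CPM below the median of those genes, namely PFKFB4, ALDOA, BPGM, ENO3 and HK3. The place of ALDOA among them is uncertain, because another gene on its strand covers most of its transcript.

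The later reactions of glycolysis, from triose phosphates to pyruvate, took 63.9% of the counts of the members, at 8394 CPM over 10 genes. ENO1, enolase, which makes phosphoenolpyruvate, was the highest member at 11.73 on the log2 scale (3385 CPM) and rank 9 of all genes listed. With CPM divided by transcript length, its rank was 22 among the genes with a length. It spans chr1:8861000-8879190 on the minus strand (GENCODE 44 annotation of GRCh38). GAPDH, the dehydrogenase that oxidises glyceraldehyde 3-phosphate and a common reference gene, followed at 11.07 (2146 CPM). PKM, the pyruvate kinase of most tissues and tumours, was at 10.33 (1287 CPM). These 3 genes alone held 51.9% of the counts of all 32 members.

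The other enzymes of these reactions were spread more widely. TPI1, which interconverts the triose phosphates, was at 9.55 (749.1 CPM), PGK1, which makes the first ATP of the pathway, at 8.94 (490.4 CPM) and PGAM1, phosphoglycerate mutase, at 7.74 (213.2 CPM). PKLR, the pyruvate kinase gene of liver and red cells, was listed at 5.60 (48.6 CPM), and BPGM, which makes 2,3-bisphosphoglycerate in red cells, at 3.74 (13.4 CPM). The red cell genes were thus detected, and divided by transcript length PKLR had 16.0 and BPGM 7.81 CPM per kilobase, beside 558.5 for PKM and 101.9 for PGK1. ENO2, the enolase typical of neurons, was at 5.67 and ENO3, that of muscle, at 3.40.

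The earlier reactions of glycolysis, from hexokinase to aldolase, held 14.6% of the counts of the members over 9 genes. HK1, the hexokinase of most tissues and of red cells, was at 8.95 (494.7 CPM), PFKL, the liver type of phosphofructokinase, at 8.90 (476.4 CPM) and GPI, which isomerises glucose 6-phosphate, at 8.76 (432.5 CPM). Per length the order was PFKL, HK1 and GPI, at 163.9, 137.3 and 104.8 CPM per kilobase. PFKP, the platelet type of phosphofructokinase, was at 7.96 (249.7 CPM), HK2, the inducible hexokinase of muscle and many tumours, at 6.91 (120.0 CPM) and PFKM, the muscle type of phosphofructokinase, at 6.64 (99.97 CPM). ALDOC, the aldolase typical of brain, was at 4.97 (31.3 CPM) and ALDOA, the aldolase of muscle and red cells, at 4.18 (18.1 CPM). Per length the aldolases, at 19.5 and 11.1 CPM per kilobase, were below PFKM, at 32.4, the lowest of the phosphofructokinases that act before them, and below TPI1, at 554.5, which acts after them. The value of ALDOA is uncertain, because another gene covers most of its transcript: with all its counts set on the 168 bases it does not share, it would be at 107.9 CPM per kilobase, above PFKM. HK3, a hexokinase of myeloid cells that spans chr5:176880869-176899346 on the minus strand, was at -2.76 (0.147 CPM). The lowest value listed for any gene was -3.76, so HK3 lay close to the floor of the table and no fold is given for it.

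**Figure D1:**
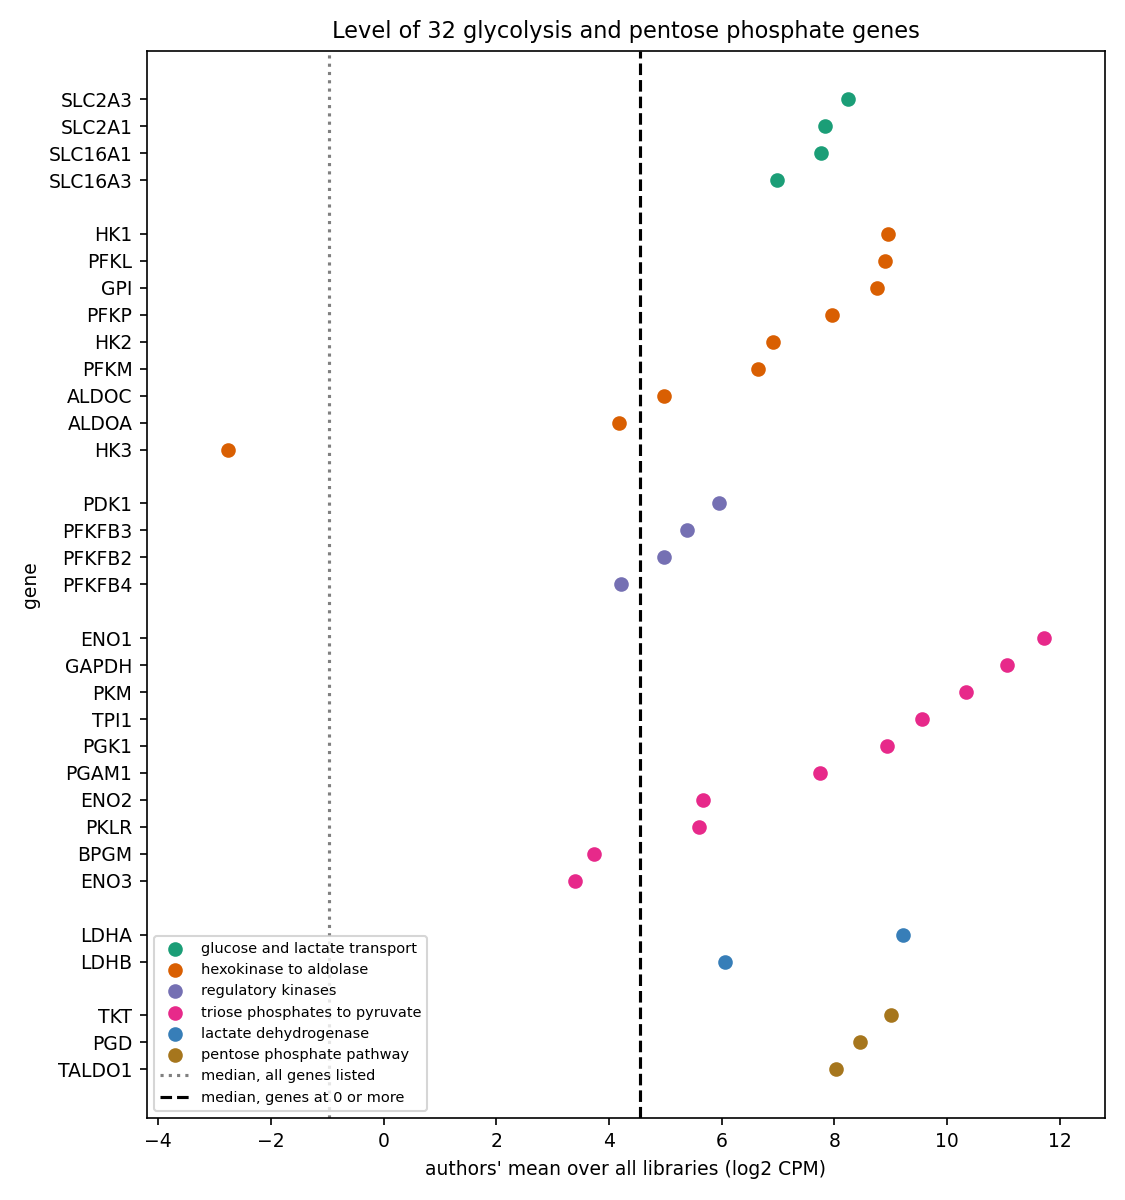
Level of each of the 32 genes, as the authors' mean log2 CPM over all libraries, grouped and coloured by step of the pathway; the lines mark the medians of all genes listed (-0.97) and of genes at 0 or more (4.55). ENO1, GAPDH and PKM are at the right, above 10, and HK3 alone lies left of both lines at -2.76.

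Transport and the ends of the pathway were also well represented. SLC2A3 and SLC2A1, the glucose transporters GLUT3 and GLUT1, were at 8.25 (304.9 CPM) and 7.84 (228.9 CPM). SLC16A1 and SLC16A3, the monocarboxylate transporters MCT1 and MCT4 that carry lactate, were at 7.76 (217.5 CPM) and 6.99 (127.1 CPM). LDHA, the lactate dehydrogenase subunit that prevails in muscle and many tumours, was at 9.22 (595.3 CPM), and LDHB, the heart type subunit, at 6.06 (66.9 CPM). The 3 pentose phosphate enzymes lay within a narrow range, and each was above at least 95% of the genes at 0 or more by CPM. TKT, transketolase, was at 9.01 (514.4 CPM), PGD, which releases the carbon dioxide and makes NADPH, at 8.45 (350.5 CPM) and TALDO1, transaldolase, at 8.03 (260.6 CPM).

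The 4 regulators held 1.17% of the counts of the members. PDK1, a kinase that shuts pyruvate dehydrogenase, was at 5.95 (61.7 CPM). PFKFB3, PFKFB2 and PFKFB4 make and remove fructose 2,6-bisphosphate, the activator of phosphofructokinase, and were at 5.38 (41.7 CPM), 4.97 (31.4 CPM) and 4.22 (18.6 CPM). By CPM they lay above 45.4% (PFKFB4) to 72.5% (PDK1) of the genes at 0 or more, and per kilobase above 34.1% (PDK1) to 52.1% (PFKFB3).

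Levels of different genes can be set side by side only per length, so each CPM was divided by the length of the canonical GENCODE transcript. On this scale of CPM per kilobase the leading isozyme held 83.8% or more of the summed level of its family for hexokinase, enolase, pyruvate kinase and, on the whole transcript, lactate dehydrogenase. HK1 took 86.5% of the summed level of the hexokinases, at 137.3 CPM per kilobase, 6.44 times HK2 at 21.3. That ratio was 4.12 per 1000 residues of protein and 48.5 with the shortest coding transcript of each gene. The shortest coding transcript of HK1 is annotated with 449 bases, too few for the 2751 coding bases of its canonical transcript. Those of ENO1, ENO2, LDHA and LDHB are also too short for the coding bases of their canonical transcripts. ENO1 took 98.5% of the enolases, at 1901 CPM per kilobase, 85.4 times ENO2 at 22.3 (50.3 times with the shortest coding transcripts), and ENO3 was at 7.28. PKM took 97.2% of the pyruvate kinases, at 558.5 CPM per kilobase, 35.0 times PKLR at 16.0. LDHA took 83.8% of the lactate dehydrogenase subunits, at 265.6 CPM per kilobase, 5.17 times LDHB at 51.3. This ratio was 8.95 per 1000 residues and 9.32 with the shortest coding transcripts, but 1.22 when all counts of LDHB were set on the 306 bases that it shares with no other gene of its strand.

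The other families were more evenly filled. PFKL held 56.3% of the phosphofructokinases, at 163.9 CPM per kilobase, with PFKP at 95.1 and PFKM at 32.4, and PFKL over PFKP went from 1.72 to 6.29 with the shortest coding transcripts. SLC2A3, at 79.7, was 1.18 times SLC2A1, at 67.6 CPM per kilobase. SLC16A1, at 58.0, was 1.18 times SLC16A3, at 48.9 CPM per kilobase, and their order reversed, to 0.131, when the shortest coding transcript of each gene was used. The shortest models of SLC16A3, at 279 bases, and PFKL, at 129, cannot hold their coding sequences of 1395 and 2340 bases. Among the isozyme families, only SLC16A1 and HK2 have a shortest model long enough for the canonical coding sequence. The ratios with the shortest coding transcripts, those of the PFKFB genes included, therefore rest on partial models. PFKFB3 was at 9.29 CPM per kilobase, above PFKFB4 at 5.32 and PFKFB2 at 4.43. The ratio of PFKFB3 to PFKFB4 was 1.75, and 5.20 with the shortest coding transcripts. The order of PFKFB4 and PFKFB2 reversed, to 0.639, per 1000 residues of protein and, to 0.569, with the shortest coding transcript. ALDOC, at 19.5, was 1.76 times ALDOA, at 11.1 CPM per kilobase, and their order reversed, to 0.181, when all counts of ALDOA were set on its unshared bases. With no spread between libraries, none of these neighbours can be said to differ beyond error.

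**Figure D2:**
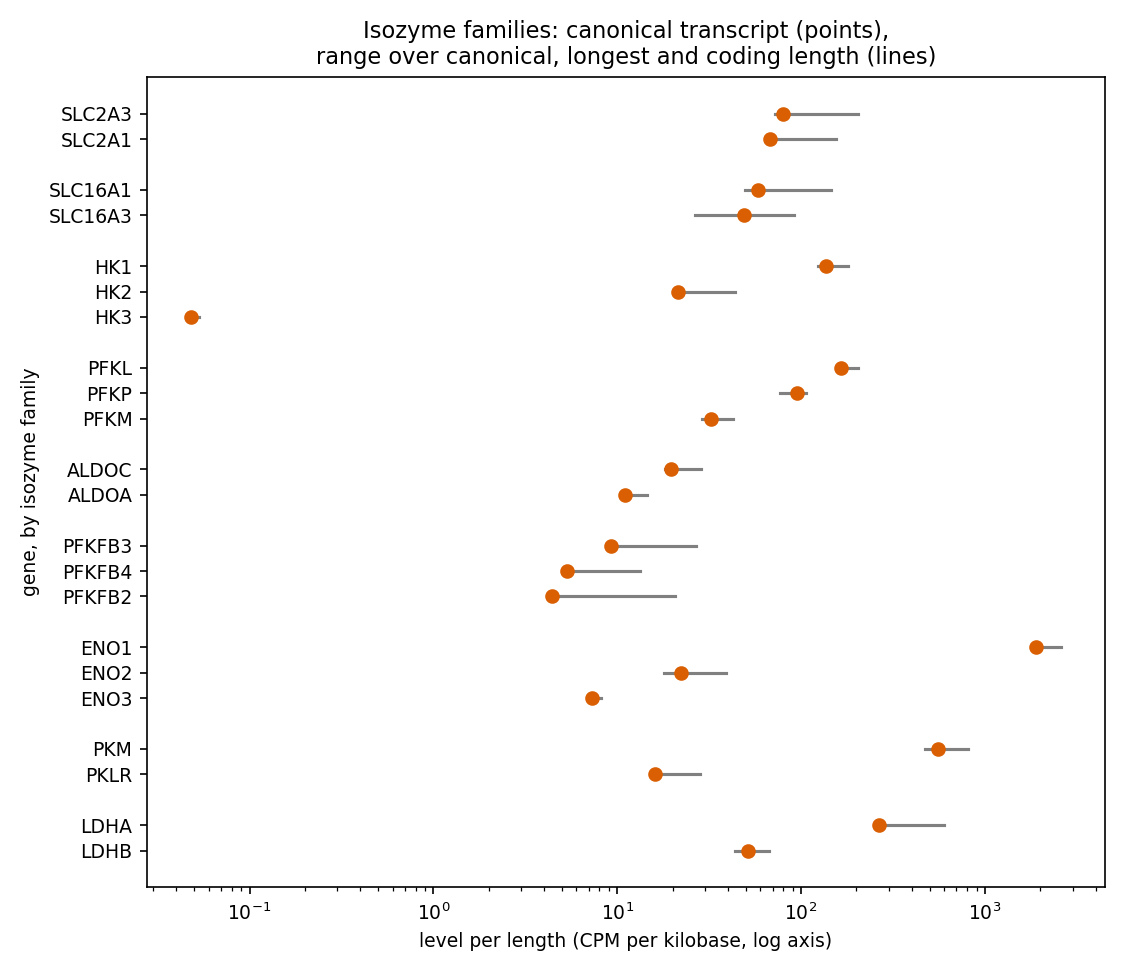
Level per length of the 22 genes in 9 isozyme families, in CPM per kilobase on a log axis; points use the canonical transcript and lines span the canonical, longest coding and coding lengths. ENO1 (1901) and PKM (558.5) stand clear of their isozymes, whereas the lines of SLC2A3 and SLC2A1, and of PFKFB4 and PFKFB2, overlap.

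The length scale changed the place of some members more than others. TALDO1 moved from place 13 among the members by CPM to place 6 per kilobase, and PGAM1 from 17 to 11, since their canonical transcripts are short, 1199 and 1802 bases. PDK1, whose canonical transcript is annotated with 14072 bases, went from place 22 to 31, at 4.38 CPM per kilobase. The 5 highest members, ENO1, GAPDH, PKM, TPI1 and LDHA, held the same places on both scales, and HK3 was last on both.

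A pair of members share most of their sequence with another gene on the same strand, which bears on how their fragments could be counted. ALDOA spans chr16:30064164-30070457 on the plus strand. Exons of ENSG00000285043, a protein-coding gene without a symbol on the same strand, cover 1472 of the 1640 bases of its canonical transcript, 89.8%. LDHB spans chr12:21635342-21757857 on the minus strand. Exons of ENSG00000285854 cover 997 of its 1303 bases, 76.5%. Among the 12925 genes at 0 or more with a transcript length, 2.54% shared at least 50% of the canonical transcript in this way. For GPI the share was 13.1% and for PFKP 4.57%, and for the other 28 members it was 0. Set on the unshared bases alone, the counts of ALDOA would give 107.9 in place of 11.1 CPM per kilobase, and those of LDHB 218.6 in place of 51.3. The higher values set all counts of a gene on its unshared bases, and the lower ones on the whole transcript. Fragments that span shared and unshared bases were not modelled, so neither value is a limit on the level. How fragments that fit more than 1 gene were treated is not given in the sources used here, and the part of this overlap in the levels was not tested, so the levels of ALDOA and LDHB are uncertain. On the opposite strand, exons of other genes covered 32.8% of GAPDH, 18.6% of SLC16A3, 18.2% of PKLR and of ALDOC, and 14.7% of SLC2A1. The library kit keeps strand, but the strand setting of the counting is not given in the sources used here.

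**Figure D3:**
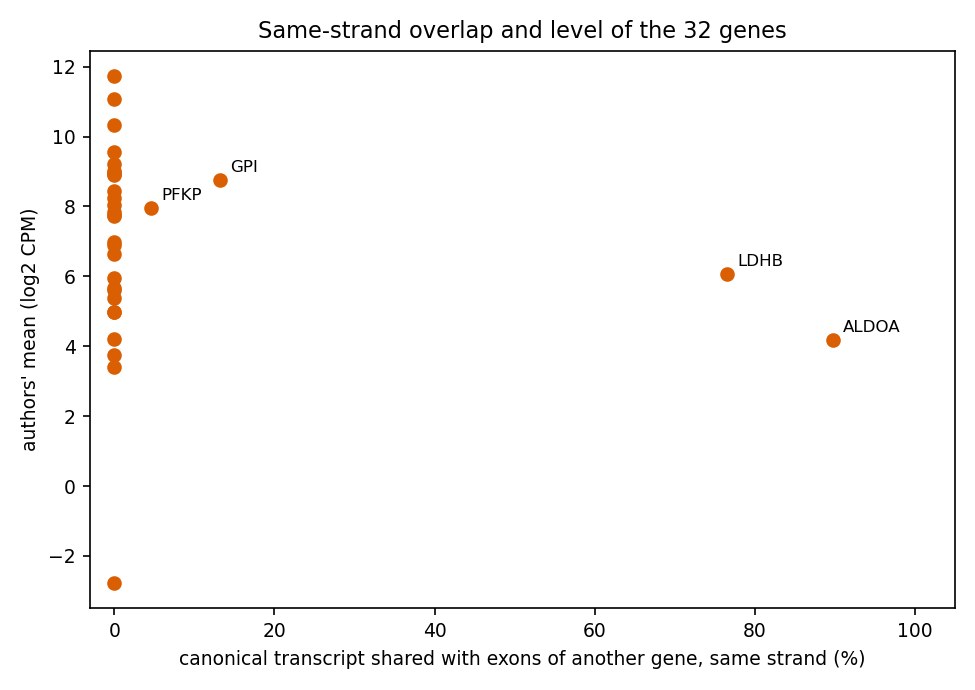
Share of the canonical transcript covered by exons of another gene on the same strand (x axis, %) against the authors' mean log2 CPM (y axis) for the 32 genes, 1 point a gene. LDHB and ALDOA lie at 76.5% and 89.8%, with levels of 6.06 and 4.18, while 28 genes lie at 0%.

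Pseudogenes, near copies of a gene elsewhere in the genome, can take reads from their parent gene. GAPDH had the most, with 38 pseudogenes listed that summed to 148 CPM, 6.88% of the level of GAPDH, and GAPDHP1 alone was at 63.6 CPM. The 4 pseudogenes of TPI1 summed to 25.3 CPM, 3.38% of TPI1. Relative to the parent the sums were highest for ALDOA, at 20.7% (3.75 CPM over 2 pseudogenes), and LDHB, at 10.9% (7.32 CPM over 2), the members with the largest overlap. For the other 7 members with a listed pseudogene the sum was at most 1.56% of the parent. These sequences are so alike that the split of reads between parent and copy is uncertain.

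Other genes of the same pathways were fixed as a list of 44, of which 38 were listed and 19 reached a mean of 0. Among the highest were BSG, the chaperone that brings MCT1 and MCT4 to the membrane, at 7.84 (228.9 CPM), and PGM2, a phosphopentomutase, at 6.82 (112.8 CPM). The lowest were GAPDHS, the GAPDH of sperm, at -3.76, and PCK1, an enzyme of gluconeogenesis in liver and kidney, at -3.48. Per length BSG was at 117.6 and PGM2 at 35.1 CPM per kilobase.

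The 21 genes of the pyruvate dehydrogenase complex, pyruvate carboxylase and the tricarboxylic acid cycle, which act on pyruvate and its products in mitochondria, were all at 3.81 or more. Their median log2 CPM was 6.61, beside 7.75 for the glycolysis and pentose phosphate members, and their median per length was 35.4 CPM per kilobase, beside 62.8. In sum they held 0.212% of the summed CPM. Pseudogenes were looked up for the members only, and not for these genes. By log2 CPM the highest were MDH2, malate dehydrogenase, at 8.19, CS, citrate synthase, at 7.94 and SDHB, a subunit of succinate dehydrogenase, at 7.23, and the lowest were SDHA, another subunit of the same enzyme, at 3.81 and PC, pyruvate carboxylase, at 5.18. Of the 32 glycolysis and pentose phosphate members, 12 had a higher mean log2 CPM than the highest cycle gene, MDH2. Per kilobase, 9 were above the highest cycle gene on that scale, SDHB, at 147.6 CPM per kilobase.

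**Figure D4:**
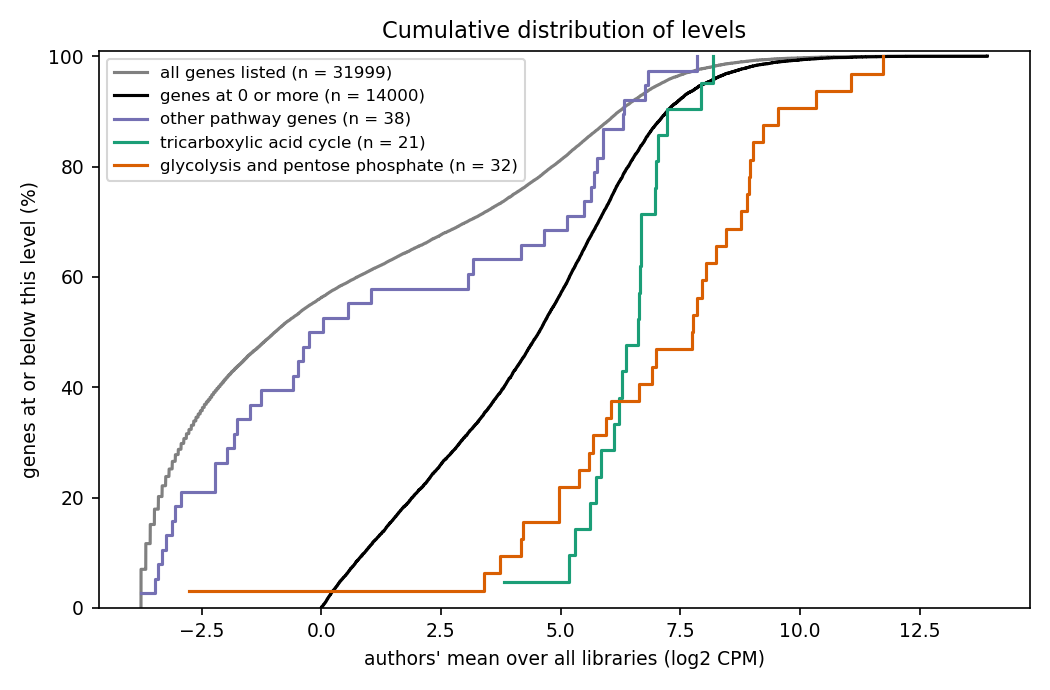
Cumulative share of genes (y axis, %) at or below each mean log2 CPM (x axis) for all 31999 genes listed, the 14000 genes at 0 or more, the 38 other pathway genes, the 21 tricarboxylic acid cycle genes and the 32 members. The members reach 11.73, past the highest cycle gene at 8.19, and start lower, with HK3 at -2.76.

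The members lie on 14 chromosomes, with 6 each on chromosomes 1 and 12. On chromosome 12, GAPDH (chr12:6534512-6538374), TPI1 (chr12:6867119-6870948) and ENO2 (chr12:6913745-6923698) lie near each other on the plus strand, and their levels were 11.07, 9.55 and 5.67 on the log2 scale.

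RefSeq promoters were found for 29 of the 32 members, and SLC2A3, SLC16A1 and PFKFB2 had no entry. In 23 members the window used sits at the start of the canonical transcript. In the other 6, HK1, GPI, PFKM, PFKP, GAPDH and PGAM1, it lies 204 to 3283 bases away. ACGTG, on either strand, was present in 14 of the 29 windows (48.3%), beside 27.2% of the 9563 promoters of genes at 0 or more and 23.3% of all 19043 promoters of the same length. The 14 members were ALDOA, ALDOC, BPGM, ENO2, GAPDH, GPI, HK2, LDHA, PDK1, PFKFB3, PGD, PGK1, PKLR and SLC16A3. Of these windows, 12 sit at the canonical start. The median level of the 14 was 6.43 on the log2 scale, with a range of 3.74 to 11.07. That of the 15 without the letters was 7.96, with a range of -2.76 to 11.73, so the ranges overlapped. The highest member, ENO1, had no ACGTG in its window. Since GCGTG was not searched for, windows without ACGTG can still hold another form of the core.

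The LDHA promoter held the most matches. ACGTG occurred 5 times on either strand, with 4 of the matches falling in its 2 copies of the E-box CACGTG, the site of MYC and related factors, which contains ACGTG in both directions. LDHA was also the only member with TGACGTCA, the full cAMP response element bound by CREB, whose first base lay at -51 from the start. This is 1 of the 29 member windows (3.45%), near the 3.39% of promoters of genes at 0 or more. PGK1 held ACGTG 3 times, with first bases at -202, -183 and 28 from the start. CACGTG was present in 5 of the 29 member windows (17.2%), those of ALDOC, GAPDH, LDHA, PFKFB3 and PKLR, beside 10.4% of promoters of genes at 0 or more. In GAPDH, PFKFB3 and PKLR every ACGTG match lay within CACGTG.

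The GC box GGGCGG was common in both sets, in 22 of 29 members (75.9%) and 73.3% of promoters of genes at 0 or more. AGATAA, the letters that GATA factors of the red cell lineage bind, was found in PGAM1 and PKLR, and TATAAA in SLC2A1 and LDHB, each 6.90% of the members, beside 4.81% and 4.84% of promoters of genes at 0 or more. The median GC content of the members was 70.7%, beside 66.0%. HK3, with 49.0%, PKLR, with 48.3%, and PFKM, with 46.3%, were at the low end, although the PFKM window lies 3283 bases from the canonical start. These matches are letters found in a window and no binding was measured.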

How the data were processed

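HEL RNA was measured by poly(A) RNA-seq in 3 shCtrl and 3 shTMIGD2 libraries, grouped by their labels. Reads were aligned by the authors to hg38 with STAR 2.6.1b and counted per gene with HTSeq 0.6.1 on a refSeq annotation, although 8252 names in the table are clone-style. Handling of reads on overlapping genes, scaling and prior count are not given in the sources used here. The deposited table gives the authors' mean log2 CPM for each of 31999 genes, with no value per library, so depth is unknown. Its other columns hold the authors' own comparison of shTMIGD2 with shCtrl (log2 fold change, F, p-value and adjusted p-value) and were not used, and the planned test of the hairpins could not be run.

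Means were turned into CPM and divided by the length of the canonical transcript (GENCODE 44, GRCh38). Of the gene names, 22805 matched by symbol and 568 by a RefSeq synonym, which gave lengths for 92.3% of the 14000 genes at 0 or more. Promoters of 300 bases came from RefSeq (GRCh38.p14), 1 a gene, the nearest to the canonical start. Functions were tested on simulated data. Python 3.11.15 and pandas 2.3.3 were used. Members and lists were chosen with earlier results of these data known. All members were named, with the 3 highest and 2 lowest other pathway genes (1 of these is not reported here), and the markers and cycle genes by extremes.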

Additional observations from a re-analysis of the deposited data

How the results depend on the processing

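The deposited table has 1 mean a gene, so the alternatives that need counts per library were not run: the replicate block, leaving out each library, DESeq2 in place of edgeR, and no filter on low counts. No paired analysis was possible because the table has no values per library. Identity between isozyme proteins was not computed, since no protein sequences were used here. Of the members, 20 lay above at least 90% of all genes listed, and this count was 16 to 19 under the other 5 scales and gene sets tried. The same gene led all 9 isozyme families per 1000 residues and with the longest coding transcript, and 8 of 9 with the shortest coding transcript, where SLC16A3 led SLC16A1. None of these lengths deals with overlap between genes. In an alternative chosen after seeing the data, with all counts on the bases not shared on the same strand, 8 of 9 families kept their highest gene: ALDOC over ALDOA reversed from 1.76 to 0.181, and LDHA over LDHB went from 5.17 to 1.22. Of 36 ratios between neighbouring isozymes under other lengths, 24 stayed within 1.5 times the value reported, 9 moved by more than that with the order kept (HK1 over HK2 and LDHA over LDHB under 2 lengths each, and 5 other pairs under 1), and 3 reversed. SLC16A1 over SLC16A3 went from 1.18 to 0.131 with the shortest coding transcript. That transcript of SLC16A3, with 279 bases, is shorter than its coding sequence of 1395 bases. PFKFB4 over PFKFB2 went from 1.20 to 0.639 per 1000 residues and to 0.569 with the shortest coding transcript. The shortest coding transcripts of PFKFB4 and PFKFB2, with 567 and 543 bases, are also shorter than their coding sequences of 1407 and 1515 bases. The length used sets these ratios by construction. Without ENO1 the members held 0.975% of the summed CPM in place of 1.31%.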

Other observations

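Each gene in this paragraph was picked with its value in view. For the genes outside the members, pseudogenes and overlap with other genes were not looked up individually. H6PD, an enzyme of the endoplasmic reticulum, was listed at -3.25 on the log2 CPM scale, near the lowest value of the table. TIGAR, which lowers fructose 2,6-bisphosphate, was at -0.26 (0.102 CPM per kilobase, beside 4.43 to 9.29 for the PFKFB genes). Of the other kinases of pyruvate dehydrogenase, PDK3 was at 4.17, PDK2 at 3.17 and PDK4 at -0.59, beside 5.95 for PDK1, but per length PDK3, at 10.3 CPM per kilobase, was above PDK1, at 4.38, whose canonical transcript is very long. SLC16A7, the monocarboxylate transporter MCT2, was at 5.64 (49.8 CPM), below SLC16A1 and SLC16A3 at 217.5 and 127.1 CPM. Per length SLC16A7 was at 4.17 CPM per kilobase, beside 58.0 and 48.9, so the gap depends on the transcript length used. RPIA and RPE, which interconvert the pentose phosphates between PGD and TKT, were at 5.89 and 5.69. ADPGK, a kinase that phosphorylates glucose with ADP, was at 5.49, or 17.3 CPM per kilobase beside 21.3 for HK2.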
